A study of Mus musculus with 12 samples.

Results

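Genes of protein folding and stress in the endoplasmic reticulum (ER) were followed in RNA-seq libraries of mouse bone marrow (BM) cells labelled hematopoietic stem cells (HSCs). A fixed list of 50 gene names was read from the deposited tables, and each of the 50 stood on a single row among 31340 rows with 31272 gene names. The list holds 9 chaperones and cochaperones of the ER lumen, 2 lectin chaperones, 6 disulfide enzymes, 7 genes of ER-associated degradation (ERAD), 5 translocon genes, 4 genes of the translocon-associated protein complex, 3 signal peptidase genes, 3 genes of the signal recognition particle, 4 oligosaccharyltransferase genes and 7 stress sensors and effectors. The 12 libraries form 4 groups of 3, and the labels give the genotype of all of them as WT. The groups are control (Ctrl), ionizing radiation (IR), and the irradiated groups Ab_IR and L_IR, whose additions Ab and L are not spelled out in the labels. Cells were taken 3 days after IR. The study's methods give C57BL/6 mice, total body irradiation from a cobalt source, and an HSC gate that is negative for lineage markers, Flt3 and CD34 and positive for Sca-1 and c-Kit. Age and the number of mice per library are not given in the sources used here. The labels do not say that replicates came from separate mice, so p-values measure only the spread between these libraries, which may be technical.

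Proteins bound for the cell surface or for secretion enter the ER through the Sec61 channel, lose their signal peptide, receive N-linked sugars and are folded by chaperones and disulfide isomerases. Proteins that fail to fold are pulled back to the cytosol and degraded, which is ERAD. When unfolded proteins build up, the sensors encoded by Ern1, Atf6 and Eif2ak3 start the unfolded protein response. Ern1 splices the Xbp1 mRNA, Atf6 is cleaved into a transcription factor, and both raise chaperone and ERAD genes. Eif2ak3 slows translation and favours Atf4, which acts on Ddit3, Trib3 and Ppp1r15a. Plasma cells, which secrete immunoglobulin, are known for very high levels of the chaperone and translocation genes and of Xbp1.

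Values are FPKM, fragments per kilobase of gene scaled to the total of the library, which allow levels to be compared between genes. The number of reads behind them is not known, and values of a library summed to 344338 to 405123. In Ctrl replicate 1, 44.1% of gene entries were 0, and in each of the other 11 libraries 24.7% to 27.3%. Of 10 HSC markers, 4 (Slamf1, Mecom, Hoxb5 and Fgd5) were under 1 FPKM in every library, and the summed level of the 10 was 60.7 to 72.3 FPKM. The kappa light chain gene Igkc was far higher, at 9409 to 24973 FPKM. Whether the libraries hold the gated HSCs alone or a wider BM population is not settled by these tables, so each level is that of the labelled library. The sum of 6 heart muscle transcripts was above 100 FPKM in the IR libraries and in all Ctrl libraries but replicate 1, and under 1 FPKM in the other 7. In such bulk samples fewer cells of a type and less RNA per cell cannot be told apart.

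The 50 genes spanned a wide range of levels. Their means over the 12 libraries ran from 1.08 FPKM for Trib3 to 833 FPKM for Calr, with a median of 48.5 FPKM, and 15 of them reached 100 FPKM. The 5 highest were Calr, P4hb, Hspa5, Hsp90b1 and Pdia3. Summed over the 50 genes, the level was 4632 to 4921 FPKM in Ctrl, 6747 to 6803 in IR, 4599.6 to 4993 in Ab_IR and 4717 to 4827 in L_IR. The IR libraries therefore stood above the other 9, which overlapped one another. The mean was highest in IR for 39 of the 50 genes. All 3 IR libraries lay above all other 9 libraries for 30 of the 50 genes, or 60%, where 16.1% of the 12699 genes with at least 1 FPKM in 3 libraries did so. They lay below the other 9 for Dnajb9, Atf4, Ddit3 and Ppp1r15a, or 8.0%, where 24.8% of all those genes did. Replicates were tight: the median SD of a listed gene on the log2 scale was 0.032 in IR, 0.037 in L_IR, 0.061 in Ab_IR and 0.13 in Ctrl. The heat map of the 50 genes shows this pattern as a red block in the IR columns with a few blue lines inside it.

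**Figure D1:**
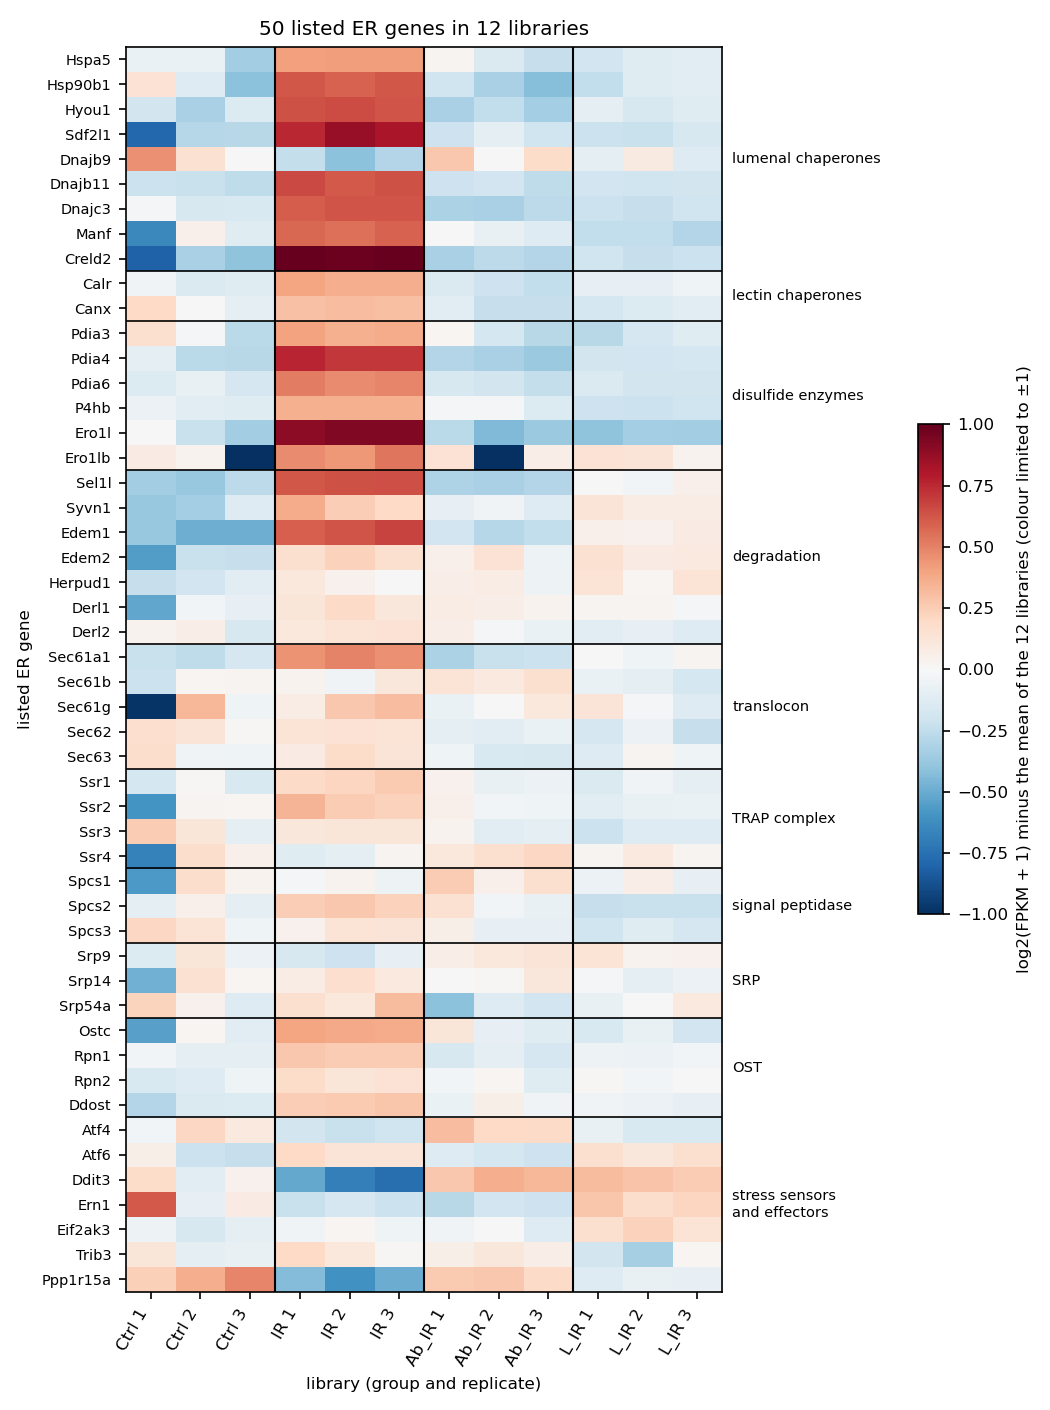
Level of each of the 50 listed ER genes (lines, by role, where TRAP is the translocon-associated protein complex, SRP the signal recognition particle and OST oligosaccharyltransferase) in each of the 12 libraries (columns), as log2(FPKM + 1) minus the gene's mean over the libraries. For 30 genes all 3 IR libraries lie above the other 9, and for Dnajb9, Atf4, Ddit3 and Ppp1r15a they lie below.

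IR was compared with Ctrl to ask what differed 3 days after irradiation. Most chaperone, disulfide and ERAD genes were higher in IR, whereas effectors of the stress response were lower or did not pass. Fold changes are differences of log2(FPKM + 1), which understates changes of low genes, and a gene passed at a limma adjusted p under 0.05 over all genes tested. All 50 genes entered the test. In IR 27 of the 50 were higher and 4 lower, that is 54.0% and 8.0%. Of all 12072 genes tested, 17.5% were higher and 25.5% lower. The median log2 fold change was 0.34 for the 50 genes and -0.046 for all genes tested. Past the stricter rule, which also asks for an absolute log2 fold change above 1, stood 4 of the 50 (Creld2, Sdf2l1, Ero1l and Edem1), or 8.0%, against 7.60% of all genes.

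Of the 9 lumenal chaperones and cochaperones, 8 were higher in IR and Dnajb9 was lower. Creld2, which encodes a secreted ER stress protein, had the largest difference of the list. Its levels were 43.8, 61.9 and 58.3 FPKM in Ctrl and 158, 154 and 162 FPKM in IR (log2 fold change 1.53, SE 0.13, adjusted p = 3.06e-04). The groups did not overlap, and Ctrl replicate 1 was the lowest library. Sdf2l1, a partner of the lumenal Hsp70 chaperone, was at 67.2, 96.0 and 96.5 FPKM in Ctrl and 198, 215 and 207 FPKM in IR (log2 fold change 1.26, SE 0.15, adjusted p = 0.00105). Hspa5 encodes that chaperone, also called BiP, and was at 442, 441 and 362 FPKM in Ctrl and 616, 617 and 619 FPKM in IR (log2 fold change 0.58, SE 0.10, adjusted p = 0.00425). Its 3 IR libraries were nearly equal and lay above every Ctrl library. Hsp90b1, the lumenal Hsp90, was at 470.0, 388 and 319 FPKM in Ctrl and 654, 641 and 654 FPKM in IR (log2 fold change 0.74, SE 0.14, adjusted p = 0.00692). Manf, a small secreted protein that binds BiP, was at 46.8, 76.4 and 67.8 FPKM in Ctrl and 110.2, 109 and 111 FPKM in IR (log2 fold change 0.81, SE 0.17, adjusted p = 0.0109). For both, the lowest IR library stood above the highest Ctrl library. Hyou1, which exchanges the nucleotide of BiP, was at 64.5, 58.3 and 66.5 FPKM in Ctrl and 114, 116 and 114 FPKM in IR (log2 fold change 0.86, SE 0.068, adjusted p = 2.34e-04). The 3 J-domain cochaperones of BiP in this group did not move alike, and Sec63, a J-domain partner of BiP at the translocon, did not pass. Dnajb11 was at 53.2 ± 0.909 FPKM (SD, n = 3) in Ctrl and 98.0 ± 1.73 FPKM in IR, and Dnajc3, which also restrains Eif2ak3, at 39.4 ± 2.35 FPKM and 65.8 ± 0.54 FPKM, and both were higher in IR. Dnajb9, which is known to hold Ern1 inactive, was at 31.9, 25.7 and 23.1 FPKM in Ctrl and 19.4, 17.1 and 18.6 FPKM in IR (log2 fold change -0.52, SE 0.12, adjusted p = 0.0163), with every IR library below every Ctrl library.

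Both lectin chaperones were higher in IR. Calr (calreticulin), the most abundant gene of the list, was at 804, 743 and 755 FPKM in Ctrl and 1082, 1058 and 1057 FPKM in IR (log2 fold change 0.47, SE 0.073, adjusted p = 0.00305). Canx (calnexin), its membrane-bound relative, was at 200.2, 174 and 163 FPKM in Ctrl and 214, 216 and 216 FPKM in IR (log2 fold change 0.27, SE 0.088, adjusted p = 0.0477). The IR libraries of Calr lay well above Ctrl, while for Canx the lowest IR library lay close to the highest Ctrl library. Of the 6 disulfide enzymes 5 were higher. Ero1l, the oxidase that recharges disulfide isomerases, was at 42.6, 36.6 and 33.6 FPKM in Ctrl and 80.7, 82.4 and 82.4 FPKM in IR (log2 fold change 1.11, SE 0.093, adjusted p = 2.86e-04). Pdia4, one of these isomerases, was at 116, 103 and 102 FPKM in Ctrl and 211, 203 and 203 FPKM in IR (log2 fold change 0.94, SE 0.073, adjusted p = 2.08e-04). The IR libraries of both genes lay at roughly the same level as one another and far above Ctrl. The isomerases Pdia3, Pdia6 and P4hb also passed, with log2 fold changes of 0.42, 0.62 and 0.45. Ero1lb, the second oxidase, was at 6.96, 6.69 and 2.72 FPKM in Ctrl and 9.43, 9.15 and 9.87 FPKM in IR and did not pass (adjusted p = 0.0718).

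Of the 7 ERAD genes 5 were higher in IR and none was lower. Edem1, which helps to select misfolded glycoproteins for ERAD, was at 27.6, 25.6 and 25.6 FPKM in Ctrl and 55.2, 56.5 and 58.5 FPKM in IR (log2 fold change 1.08, SE 0.06, adjusted p = 6.19e-05). Sel1l, the adaptor of the ubiquitin ligase encoded by Syvn1, was at 15.1, 14.8 and 16.1 FPKM in Ctrl and 30.5, 30.9 and 31.1 FPKM in IR (log2 fold change 0.96, SE 0.058, adjusted p = 8.04e-05). For both genes the spread within a group was far smaller than the gap between the groups. Syvn1 itself had a log2 fold change of 0.56, and Edem2 one of 0.52. Herpud1, a membrane protein that brings substrates to that ligase, was at 55.0, 56.6 and 60.3 FPKM in Ctrl and 69.8, 66.6 and 64.5 FPKM in IR (log2 fold change 0.22, SE 0.065, adjusted p = 0.0331). This was the smallest rise among the 27 genes that passed, and the groups did not overlap. Derl1 and Derl2, channel components of ERAD, did not pass, at 35.5 ± 6.44 FPKM and 4.87 ± 0.494 FPKM in Ctrl and 45.2 ± 1.45 FPKM and 5.49 ± 0.0872 FPKM in IR.

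Of the 15 genes of the translocon, the translocon-associated complex, the signal peptidase and the signal recognition particle, 3 were higher and none lower, namely Sec61a1, Ssr1 and Spcs2, a share near that of all genes tested (17.5%). Sec61a1, the pore of the Sec61 channel, was at 41.9 ± 1.33 FPKM (SD, n = 3) in Ctrl and 68.1 ± 1.22 FPKM in IR (log2 fold change 0.69, SE 0.056, adjusted p = 2.48e-04). Ssr1, of the complex that assists the channel, had a log2 fold change of 0.33, and Spcs2, of the signal peptidase that removes signal peptides, one of 0.29. Sec61b, a small subunit of the same channel, was at 63.1, 74.3 and 75.0 FPKM in Ctrl and 75.2, 71.7 and 79.8 FPKM in IR, and its groups overlapped. Ssr4, of the translocon-associated complex, was at 24.5, 45.1 and 41.2 FPKM in Ctrl and 36.4, 37.4 and 40.6 FPKM in IR, with Ctrl replicate 1 far below the other Ctrl libraries. Ctrl replicate 1 was also the lowest Ctrl library for Sec61g, Spcs1, Srp14, Ssr2, Derl1 and Ostc. All 4 oligosaccharyltransferase genes, whose products attach N-linked sugars, were higher in IR, with log2 fold changes of 0.59 for Ostc, 0.46 for Ddost, 0.33 for Rpn1 and 0.26 for Rpn2. The signal recognition particle genes Srp9, Srp14 and Srp54a, whose products bring ribosomes to the ER, did not pass, nor did Sec61g, Sec62, Sec63, Ssr2, Ssr3, Spcs1 and Spcs3. Their Ctrl means ran from 4.84 FPKM for Srp9 to 131 FPKM for Ssr3, and their IR means from 4.34 to 163 FPKM. Reads of Srp54a can be shared with near-identical neighbouring copies, so its values are uncertain.

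The 7 stress sensors and effectors behaved otherwise: none was higher and 3 were lower. Ppp1r15a, the phosphatase subunit that restores translation, was at 46.8, 51.1 and 55.7 FPKM in Ctrl and 28.9, 25.6 and 27.6 FPKM in IR (log2 fold change -0.88, SE 0.085, adjusted p = 5.00e-04). Ddit3, the transcription factor CHOP, was at 11.2, 8.96 and 10.1 FPKM in Ctrl and 6.53, 5.68 and 5.37 FPKM in IR (log2 fold change -0.69, SE 0.10, adjusted p = 0.00284). Atf4, which acts upstream of both, was at 141, 167 and 155 FPKM in Ctrl and 127, 124 and 126 FPKM in IR (log2 fold change -0.29, SE 0.076, adjusted p = 0.0223). In each of these genes all IR libraries lay below all Ctrl libraries. The sensors did not pass. Ern1 was at 17.6, 10.5 and 11.9 FPKM in Ctrl and 9.43, 9.85 and 9.49 FPKM in IR, Atf6 at 8.77, 7.08 and 7.02 FPKM in Ctrl and 9.77, 9.26 and 9.29 FPKM in IR, and Eif2ak3 at 6.41, 5.87 and 6.15 FPKM in Ctrl and 6.47, 6.77 and 6.42 FPKM in IR. Ctrl replicate 1 was the highest Ctrl library of all 3 sensors. Trib3, another target of Atf4, did not pass, at 1.25, 0.94 and 0.96 FPKM in Ctrl and 1.38, 1.22 and 1.08 FPKM in IR. These values are transcript levels per gene, which do not show the spliced form of Xbp1 or the phosphorylated and cleaved forms of the sensors.

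The counts changed when 1 library was left out, both among the 50 genes and among all genes tested. Left without IR replicate 2 or IR replicate 3, 20 genes were higher in place of 27 and 2 lower (Ddit3 and Ppp1r15a) in place of 4, while the shares of all genes fell too, without IR replicate 2 to 11.6% higher and 17.0% lower. Dnajb9 was then at adjusted p = 0.0669 and 0.0544. Atf4 lost its call without any one of Ctrl replicate 3 and the 3 IR libraries (adjusted p up to 0.0937), that is in 4 of the 6 exclusions. Canx lost its call without any one of 5 of the 6 libraries (adjusted p up to 0.144) and Herpud1 without any one of Ctrl replicate 2 and the 3 IR libraries (up to 0.143). Without Ctrl replicate 1, 32 genes were higher and 5 lower, with 25.1% of all genes higher and 34.7% lower. Ero1lb (0.97), Derl1 (0.20), Sec63 (0.17), Ssr2 (0.25) and Atf6 (0.37) then also passed as higher and Ern1 (-0.20) as lower.

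**Figure D2:**
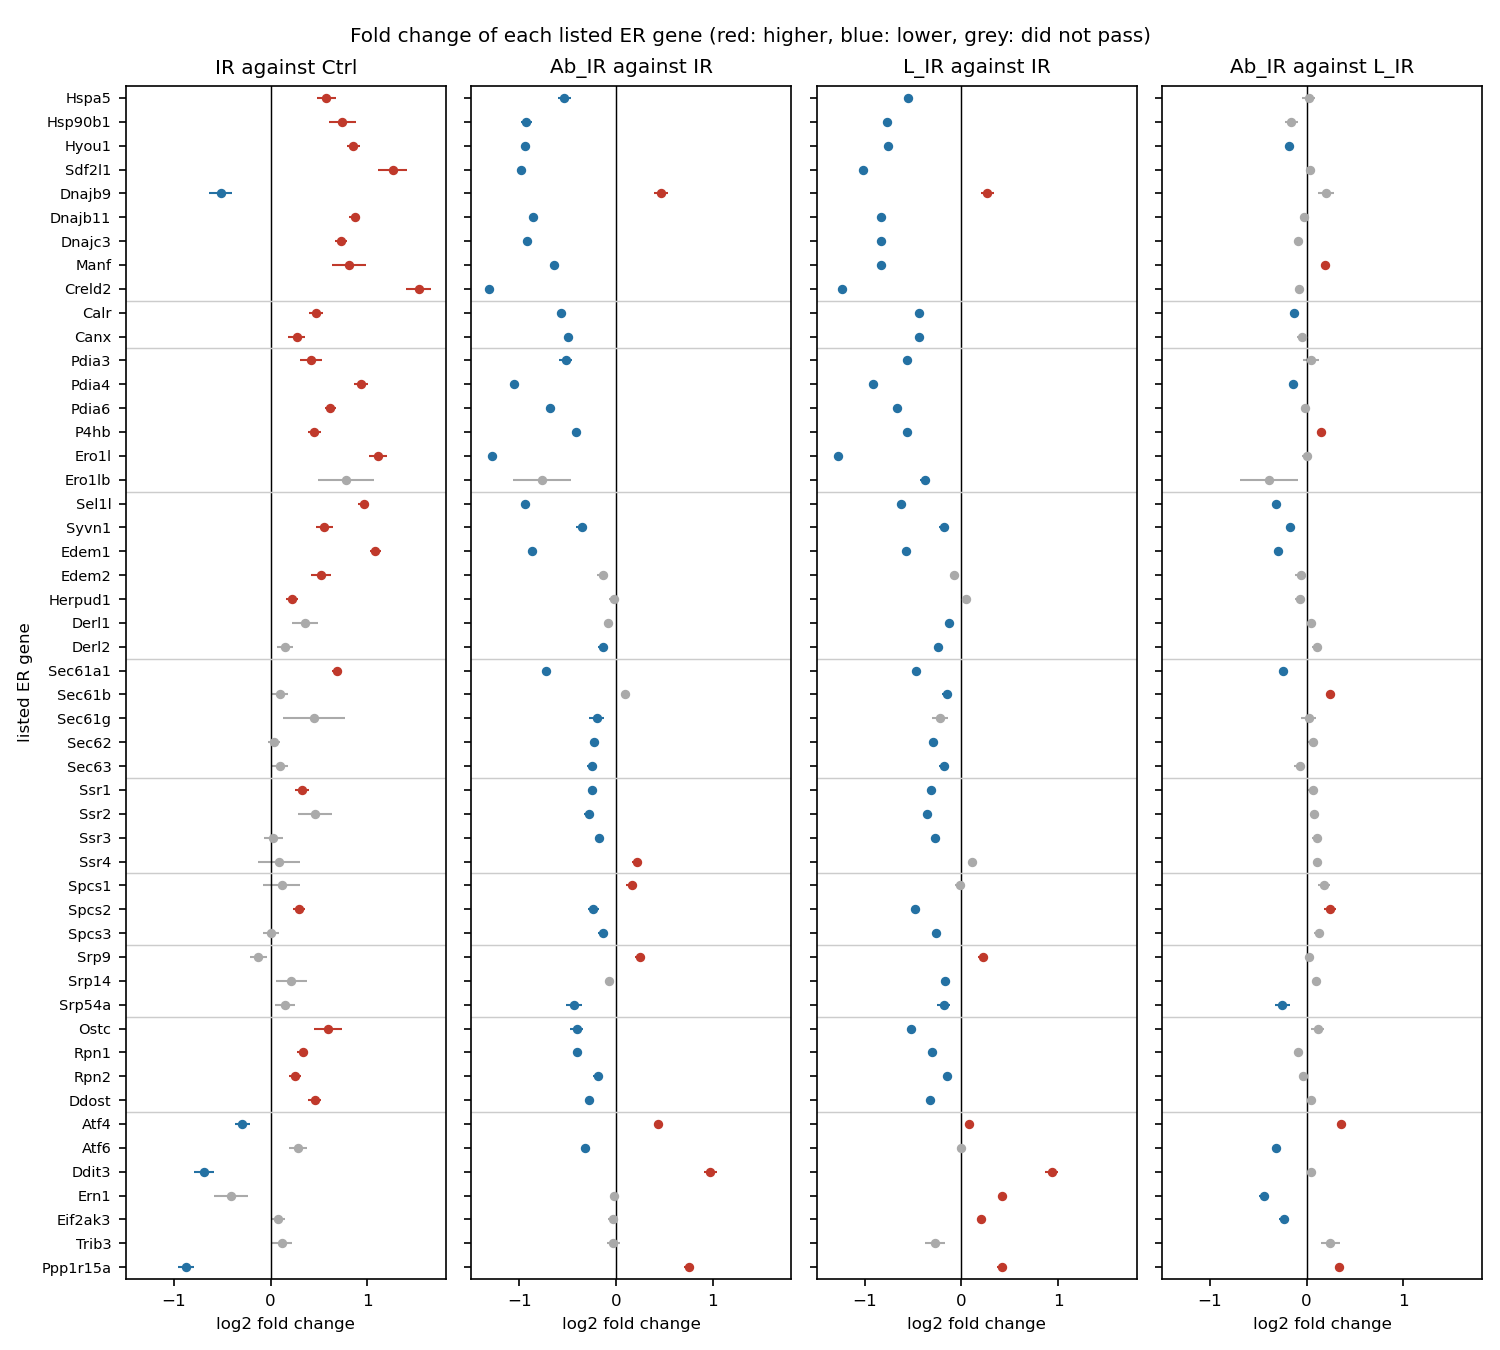
Log2 fold change (points) and standard error (bars) of each of the 50 listed ER genes in the 4 comparisons, on log2(FPKM + 1), with 3 libraries a group. Red points passed as higher, blue points as lower and grey points did not pass, and 27 are red in IR against Ctrl. In Ab_IR and L_IR against IR, 34 and 36 are blue.

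Chaperone genes are textbook targets of Atf6 and Xbp1, which bind the ER stress element (ERSE), CCAAT followed after 9 bases by CCACG. RefSeq windows (GRCm38.p6) from 250 bases before to 50 bases after the start of a gene were found for 42 of the 50 genes, in 44 windows. An exact ERSE on either strand was in 9 of the 44 windows, or 20.5%, against 0.119% of 32851 windows of all genes. The matches are printed in the direction of the motif, with both of its parts in capitals.
Hspa5, chr2:34772025-34772043, plus strand: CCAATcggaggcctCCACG
Hsp90b1 (farther match), chr10:86705638-86705656, minus strand: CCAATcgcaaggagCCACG
Hsp90b1 (nearer match), chr10:86705533-86705551, plus strand: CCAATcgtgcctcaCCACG
Calr, chr8:84847075-84847093, plus strand: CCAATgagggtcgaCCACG
Canx, chr11:50325800-50325818, minus strand: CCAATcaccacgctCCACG
Pdia6, chr12:17266491-17266509, plus strand: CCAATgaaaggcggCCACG
Creld2, chr15:88819520-88819538, minus strand: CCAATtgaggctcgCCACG
Dnajc3, chr14:118937827-118937845, plus strand: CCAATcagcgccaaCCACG
Syvn1, chr19:6046532-6046550, plus strand: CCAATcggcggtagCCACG
Ero1lb, chr13:12565682-12565700, minus strand: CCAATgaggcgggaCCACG
The 10 matches lay between 212 and 26 bases before the annotated start. Of these 9 genes, 8 were higher in IR and Ero1lb did not pass, with a median log2 fold change of 0.62. Of the 33 genes with a window and no match, 15 were higher and 4 lower (median 0.22), and of the 8 genes with no window 4 were higher (median 0.53). The list includes textbook targets of Atf6 and Xbp1 by choice, so its higher share of matches is not an independent result. All 9 genes with a match are chaperone, disulfide or ERAD genes, so the split by match is in part a split by role. A match describes the letters in the window only. Sdf2l1, Ero1l, Edem1, Sel1l and Pdia4, which were among the 6 largest rises, had no exact match in their windows. All of these windows held CCACG, which was in 70.5% of the 44 windows and 32.8% of all windows.

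A pair of promoters is shown in full, Creld2 as the gene with the largest rise in IR and Herpud1 as the gene with the smallest rise that passed. Each window runs from 150 bases to 1 base before the RefSeq start, in the direction of the gene. In Creld2 the capitals mark both parts of the ERSE, read on the opposite strand. In Herpud1 they mark the whole of TTGCATCA, a C/EBP-ATF response element bound by Atf4, and the whole of the related ERSE-II, ATTGG followed after 1 base by CCACG.
Creld2, chr15:88819496-88819645, plus strand: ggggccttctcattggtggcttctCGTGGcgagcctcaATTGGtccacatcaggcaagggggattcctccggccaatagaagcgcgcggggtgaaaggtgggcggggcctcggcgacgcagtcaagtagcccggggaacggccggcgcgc
Herpud1, chr8:94386279-94386428, plus strand: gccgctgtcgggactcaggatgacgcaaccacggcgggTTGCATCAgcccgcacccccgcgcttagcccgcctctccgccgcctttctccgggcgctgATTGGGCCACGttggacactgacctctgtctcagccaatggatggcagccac
ERSE-II was in 2 of the 44 windows (Herpud1 and Dnajb11) and in 0.0365% of all windows, and TTGCATCA in 1 of the 44 (Herpud1) and in 0.895% of all. The motif TGACGTGG was in none of the 44 and in 0.676% of all. ERSE, ERSE-II and TGACGTGG share CCACG or its reverse complement, in whole or in part, so their matches are not independent.

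**Figure D3:**
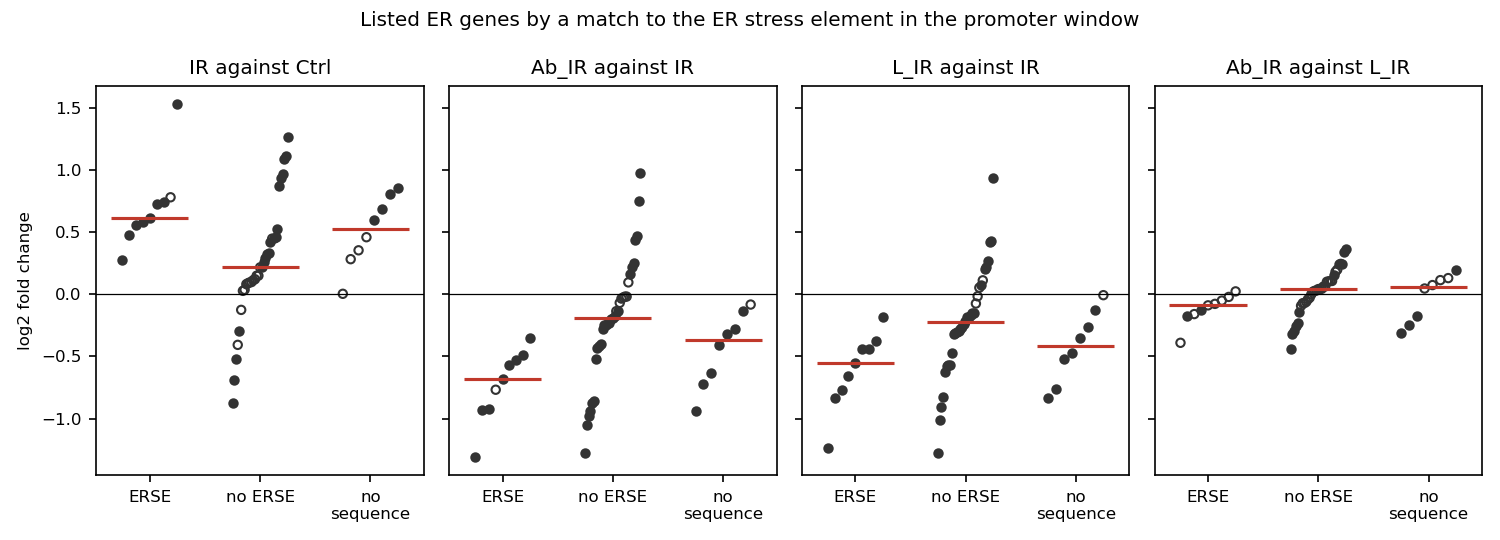
Log2 fold change of the listed ER genes in each comparison, split by an exact ERSE in the promoter window (9 genes), a window without one (33) or no window (8). Filled points passed the test, open points did not and red lines are medians; in IR against Ctrl all 9 genes with an ERSE lie above 0.

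Ab_IR was compared with IR to ask what differed when Ab was added to irradiation. Most chaperone and disulfide genes and all 4 oligosaccharyltransferase genes were lower in Ab_IR than in IR, and the effectors Ddit3, Ppp1r15a and Atf4 were higher. In Ab_IR 34 of the 50 genes were lower (68.0%) and 7 higher (14.0%). Among all 12067 genes tested, 29.4% were lower and 39.4% higher. The median log2 fold change was -0.28 for the list and 0.061 for all genes. Creld2, Ero1l and Pdia4 passed the stricter rule, 6.0% of the list against 7.57% of all genes. This comparison and those of IR with Ctrl and with L_IR share the IR libraries, so they are not independent of one another.

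In Ab_IR the largest fall was that of Creld2, at 61.7, 64.6 and 63.2 FPKM (log2 fold change -1.31, SE 0.035, adjusted p = 2.06e-07). Ero1l was at 35.3, 31.2 and 32.9 FPKM (log2 fold change -1.28, SE 0.048, adjusted p = 8.37e-07) and Pdia4 at 101, 98.9 and 95.8 FPKM (log2 fold change -1.06, SE 0.035, adjusted p = 5.01e-07). The Ab_IR libraries of these 3 genes lay far under all IR libraries. Sdf2l1 was at 101, 109 and 102 FPKM (log2 fold change -0.98, SE 0.046, adjusted p = 2.29e-06) and Sel1l at 15.6, 15.4 and 15.7 FPKM (log2 fold change -0.94, SE 0.032, adjusted p = 5.88e-07). Hspa5 was at 472, 418 and 394 FPKM (log2 fold change -0.53, SE 0.064, adjusted p = 2.39e-04), with more spread among the Ab_IR libraries than in IR but no overlap. Hsp90b1, Calr, Canx and Manf were also lower, with log2 fold changes of -0.93, -0.57, -0.49 and -0.64. Of the 9 genes with an ERSE 8 were lower and Ero1lb did not pass (median log2 fold change -0.68). Of the 33 with a window and no match 19 were lower and 7 higher (median -0.19), and of the 8 with no window 7 were lower (median -0.37). By role, 8 of 9 lumenal chaperones, both lectin chaperones, 5 of 6 disulfide enzymes, 4 of 7 ERAD genes, 4 of 5 translocon genes and all 4 oligosaccharyltransferase genes were lower. Among these, Hyou1, Dnajc3, Dnajb11, Edem1 and Sec61a1 had log2 fold changes of -0.94, -0.92, -0.86, -0.87 and -0.72. Of the translocon-associated, signal peptidase and signal recognition particle genes, Ssr1, Ssr2, Ssr3, Spcs2, Spcs3 and Srp54a were lower, Srp54a by the most at -0.44. Edem2, Derl1, Ero1lb and Srp14 did not pass. Herpud1 was at 67.9, 68.1 and 62.3 FPKM, overlapping its IR values, and did not pass.

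Of the 7 genes higher in Ab_IR, 3 were effectors of the stress response. Ddit3 was at 12, 12.8 and 12.5 FPKM (log2 fold change 0.97, SE 0.068, adjusted p = 1.48e-05), every Ab_IR library lying above every IR library. Ppp1r15a was at 47.5, 47.6 and 45.2 FPKM (log2 fold change 0.75, SE 0.051, adjusted p = 1.30e-05) and Atf4 at 179, 166 and 165 FPKM (log2 fold change 0.44, SE 0.04, adjusted p = 6.06e-05). Dnajb9 was at 27.9, 23.1 and 26.3 FPKM (log2 fold change 0.47, SE 0.076, adjusted p = 0.00116). The other 3 were the protein entry genes Ssr4, Spcs1 and Srp9, with log2 fold changes of 0.22, 0.16 and 0.25. Among the sensors Atf6 was lower, at 7.59, 7.30 and 7.15 FPKM (log2 fold change -0.32, SE 0.043, adjusted p = 3.87e-04). Ern1, at 9.08, 9.70 and 9.58 FPKM, and Eif2ak3, at 6.46, 6.67 and 6.0 FPKM, overlapped with IR. Trib3 and Sec61b did not pass either. When immunoglobulin genes were left out and the other genes rescaled, 41 genes were lower and 4 higher, and Ssr4 lost its call (log2 fold change 0.069). This rescaling also moved the median of all genes from 0.061 to -0.065, with 39.6% of all genes lower and 28.0% higher, and that of the list from -0.28 to -0.43. The summed heart transcripts were 112 to 143 FPKM in IR, 0.35 to 0.59 in Ab_IR and 0.29 to 0.48 in L_IR, so within these comparisons they cannot be told apart from the groups. A fit of all 12 libraries with the heart transcript split as a term was an alternative chosen after seeing the data. In Ab_IR against IR it called 36 genes, with 35.6% of all genes higher and 26.9% lower. It kept 30 of the 41 calls, and Manf (log2 fold change -0.028, adjusted p = 0.795) and Dnajb9 (0.09, adjusted p = 0.616) were among those lost. Without the term that fit kept 34 of the 41 (31.1% and 23.1% of all genes). The split differed within Ctrl alone, so the term rests on the difference of Ctrl replicate 1 from the other Ctrl libraries.

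L_IR was compared with IR in the same way, for the addition L. Most chaperone, disulfide and entry genes were lower in L_IR, and the stress genes Ddit3, Ppp1r15a, Ern1 and Eif2ak3 were higher. In L_IR 36 of the 50 genes were lower (72.0%) and 7 higher (14.0%). Over all 12163 genes tested, 26.0% were lower and 40.8% higher, with median log2 fold changes of -0.30 for the list and 0.073 for all genes. Ero1l, Creld2 and Sdf2l1 passed the stricter rule, 6.0% of the list against 6.22% of all genes.

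Ero1l fell the most, to 32.1, 33.7 and 33.5 FPKM in the 3 L_IR libraries (log2 fold change -1.28, SE 0.027, adjusted p = 1.17e-07). Creld2 was at 67.5, 65.9 and 66.7 FPKM (log2 fold change -1.23, SE 0.026, adjusted p = 1.17e-07) and Sdf2l1 at 101, 100.1 and 104 FPKM (log2 fold change -1.01, SE 0.035, adjusted p = 8.98e-07). For all 3 genes the L_IR replicates were nearly identical and far below IR. Pdia4 was at 109, 108 and 109 FPKM (log2 fold change -0.91, SE 0.023, adjusted p = 2.61e-07) and Dnajc3 at 36.5, 36.1 and 36.9 FPKM (log2 fold change -0.83, SE 0.022, adjusted p = 2.77e-07). Hspa5 was at 405, 425 and 429 FPKM (log2 fold change -0.56, SE 0.027, adjusted p = 4.16e-06). Hsp90b1, Manf, Calr and Canx had log2 fold changes of -0.77, -0.83, -0.44 and -0.44 and passed. Of the 9 lumenal chaperones 8 were lower, with all 6 disulfide enzymes, 5 of 7 ERAD genes, 4 of 5 translocon genes and all 4 oligosaccharyltransferase genes. All 9 genes with an ERSE were lower (median log2 fold change -0.56). Of the 33 with a window and no match 20 were lower and 7 higher (median -0.22). Of the 8 genes with no window 7 were lower (median -0.41). Sel1l and Edem1 were lower too, at 19.6, 19.1 and 20.3 FPKM and 37.5, 37.2 and 38.5 FPKM, values that lie between those of Ctrl and IR. Of the protein entry genes Spcs2 fell the most (log2 fold change -0.48), ahead of Sec61a1 (-0.47) and Ssr2 (-0.36), and Ostc, of the oligosaccharyltransferase, was at -0.52. Ero1lb was lower as well, at 7.31, 7.23 and 6.68 FPKM (log2 fold change -0.38, SE 0.046, adjusted p = 3.22e-04), all below the IR values. Edem2, Spcs1 and Sec61g did not pass. Herpud1, at 71.5, 65.8 and 71.3 FPKM, and Ssr4, at 40.6, 42.5 and 40.6 FPKM, did not pass.

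Among the effectors, Ddit3 was at 12.3, 12.1 and 11.8 FPKM in L_IR (log2 fold change 0.93, SE 0.064, adjusted p = 1.91e-05), about its level in Ab_IR. Ppp1r15a was at 36.0, 37.5 and 37.2 FPKM (log2 fold change 0.42, SE 0.046, adjusted p = 1.97e-04), between IR and Ctrl with no overlap with either. Atf4 was at 137, 129.7 and 130.1 FPKM, with a log2 fold change of 0.077 (adjusted p = 0.0495), about the median of all genes tested (0.073). With median ratio scaling, which takes out that shift, it was 0.0071 (adjusted p = 0.841), and 12 of 17 alternatives lost the call. Ern1, at 13.8, 12.8 and 13.1 FPKM (log2 fold change 0.42, SE 0.037, adjusted p = 6.68e-05), and Eif2ak3, at 7.58, 8.01 and 7.44 FPKM (log2 fold change 0.20, SE 0.041, adjusted p = 0.00407), were higher in L_IR. Atf6 did not pass, at 9.51, 9.17 and 9.47 FPKM, a range that overlapped IR. Trib3 was at 0.82, 0.64 and 1.10 FPKM and did not pass. Dnajb9 and Srp9 made up the 7 higher genes, with log2 fold changes of 0.27 and 0.22. Sec61b was lower (log2 fold change -0.15, adjusted p = 0.0245). The call of Atf4 was lost without any one of IR replicates 1, 2 and 3 and L_IR replicates 1 and 3 (adjusted p up to 0.14), and that of Sec61b without IR replicate 1 or 3 or L_IR replicate 2 or 3 (up to 0.073). With the level of Igkc as a term in a model of all 12 libraries, the log2 fold changes of Ern1, Dnajb9 and Sec61b were -0.30, -0.27 and 0.17, of opposite sign, and did not pass. In that fit 36 genes were called, with 30.4% of all genes higher and 19.9% lower. It kept 28 of the 43 calls of this comparison, and Manf (-0.10, adjusted p = 0.636), Eif2ak3 (0.11) and Atf4 (0.28) were among those lost. Without the term, the fit of all 12 libraries kept 33 of the 43 calls (29.3% and 17.4% of all genes). With the heart transcript split as a term, it called 40 genes and kept 31 of the 43 (34.1% and 22.2% of all genes).

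**Figure D4:**
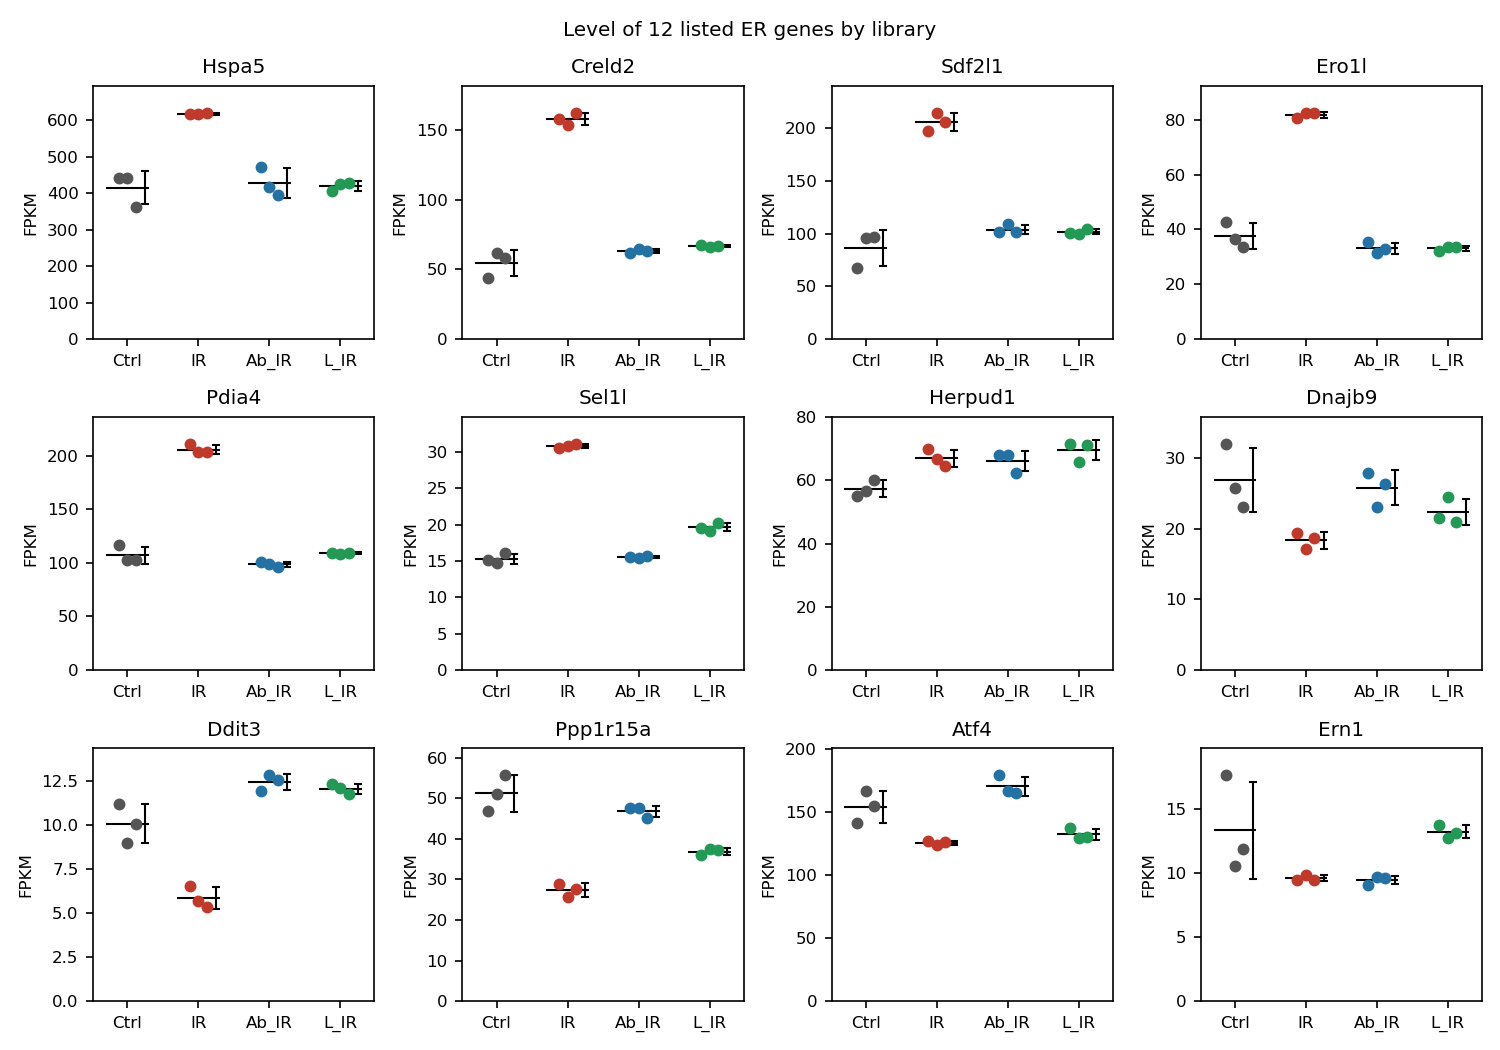
Level in FPKM of 12 listed ER genes in each of the 12 libraries (points), with the mean of 3 (line) and the SD (bar). The IR points of Hspa5, Creld2, Sdf2l1, Ero1l, Pdia4 and Sel1l lie above all others, those of Dnajb9, Ddit3, Ppp1r15a and Atf4 below all others, and Ern1 is lower in Ab_IR than in L_IR.

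Ab_IR and L_IR were compared directly, which tests the difference between the additions. Among the genes that passed, the largest differences were those of a stress sensor, Ern1, and of the effectors Atf4 and Ppp1r15a, and most chaperones did not pass. In Ab_IR 6 of the 50 genes were higher (12%) and 11 lower (22%), next to 18.2% and 19.8% of all 12194 genes tested. None of the 50 passed the stricter rule, which 0.533% of all genes did. The number of listed genes at an unadjusted p under 0.05 was 25 of 50 in either direction by limma, close to the 48.1% of all genes tested that reached it. The median log2 fold change was 0.022 for the list and 0.0063 for all genes.

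Ern1 differed the most, at 9.08, 9.70 and 9.58 FPKM in Ab_IR and 13.8, 12.8 and 13.1 FPKM in L_IR (log2 fold change -0.44, SE 0.045, adjusted p = 5.02e-04). The other sensors were also lower in Ab_IR, Atf6 with log2 fold change -0.32, SE 0.041, adjusted p = 0.00131 and Eif2ak3 with log2 fold change -0.23, SE 0.051, adjusted p = 0.011. The libraries of these 3 sensors did not overlap between the groups. Of the listed effectors of the Eif2ak3 branch only Atf4 and Ppp1r15a went the other way, and Trib3 did not pass. Atf4 was higher in Ab_IR (log2 fold change 0.36, SE 0.045, adjusted p = 0.00114), as was Ppp1r15a (log2 fold change 0.34, SE 0.038, adjusted p = 7.53e-04), while Ddit3 did not pass at means of 12.4 and 12.1 FPKM. The ERAD genes Sel1l, Edem1 and Syvn1 were lower in Ab_IR, Sel1l with log2 fold change -0.32, SE 0.038, adjusted p = 8.82e-04, Edem1 with log2 fold change -0.30, SE 0.039, adjusted p = 0.00134 and Syvn1 with a log2 fold change of -0.17. Calr, Pdia4, Hyou1, Sec61a1 and Srp54a were lower as well, with falls of 0.13 to 0.25 on the log2 scale. Manf, P4hb, Sec61b and Spcs2 were higher, with log2 fold changes of 0.19, 0.15, 0.25 and 0.24. Hspa5, Hsp90b1, Canx, Creld2, Sdf2l1, Ero1l, Herpud1, Ssr4 and Trib3 were among the 33 genes that did not pass.

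Median ratio scaling kept 16 of the 17 calls of this comparison and called 16 genes (19.4% of all genes higher and 20.4% lower). Quantile normalization also kept 16 and called 21 (18.2% and 20.1% of all genes). Leaving out immunoglobulin genes changed the counts more. Immunoglobulin genes took 21.9% to 22.6% of the summed FPKM in L_IR and 13.5% to 14.3% in Ab_IR. With these genes left out and the rest rescaled, the median of all genes shifted to -0.11, and 2 of the 50 genes were higher and 22 lower in Ab_IR (median -0.12), next to 6.57% and 34.0% of all genes. Without L_IR replicate 1, 6 genes were lower in place of 11, and 15.3% of all genes in place of 19.8%. Under that exclusion Calr and Pdia4 no longer passed (adjusted p = 0.0887 and 0.0534), while Ern1, Atf6, Eif2ak3, Atf4 and Ppp1r15a did. With the level of Igkc as a term, which was higher in every L_IR library than in Ab_IR, Ern1 (0.27), Atf6 (0.062), Calr (0.017), Pdia4 (0.10), Sec61b (-0.064) and Manf (-0.52) changed sign, and among these 6 genes Manf alone passed. That fit of all 12 libraries called 20 of the 50 genes, with 13.1% of all genes higher and 17.0% lower. Of the 17 calls of this comparison 3 were kept in that fit, and Atf4, Ppp1r15a, Eif2ak3 and Edem1 were among those lost. The same fit without the term called 11 genes, all among the 17 (8.02% of all genes higher and 11.2% lower). Of the variation of Igkc within groups, 92.0% came from Ctrl, which is not in this comparison.

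The 50 genes were set against Igkc and other transcripts of secretory cells. Igkc was at 12526, 9789 and 9409 FPKM in Ctrl, 17658, 16423 and 16623 in IR, 17305, 17008 and 16760.1 in Ab_IR and 24121, 24333 and 24973 in L_IR. It was about equal in IR and Ab_IR and highest in L_IR, whereas the summed level of the 50 genes was highest in IR and about equal in Ab_IR and L_IR. Jchain, which joins immunoglobulin multimers, had means of 587, 719.6, 954 and 1275 FPKM in the same order of groups. Sdc1, the plasma cell surface marker CD138, had means of 4.43, 5.80, 7.91 and 11.5 FPKM. Both means were lowest in Ctrl and highest in L_IR. Xbp1 instead followed the listed genes. It was at 69.1, 83.6 and 78.6 FPKM in Ctrl, 201, 201 and 199 in IR, 100.1, 96.0 and 91.1 in Ab_IR and 108, 108 and 107 in L_IR. Its log2 fold change was 1.37 in IR against Ctrl (adjusted p = 7.86e-05), -1.06 in Ab_IR against IR (adjusted p = 9.31e-07) and -0.89 in L_IR against IR (adjusted p = 1.22e-07).

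From Ctrl to IR the Igkc mean was 1.60 times as high and the sum of the 50 genes 1.40 times. The ratio of means exceeded that of Igkc for 13 of the 50 genes, among them Creld2, Sdf2l1, Ero1l, Edem1, Sel1l, Pdia4, Hsp90b1 and Manf, and not for Hspa5, Calr, Canx or Herpud1. From IR to Ab_IR the Igkc ratio was 1.01 and that of the summed genes 0.707. From IR to L_IR these were 1.45 and 0.705. Between Ab_IR and L_IR the summed genes differed by a ratio of 1.0 where Igkc differed by 0.696. Per 1000 FPKM of Igkc, the summed level of the 50 genes was 393, 502 and 492 FPKM in Ctrl, 385, 411 and 408 in IR, 289, 281 and 274 in Ab_IR and 196, 197 and 193 in L_IR. On this scale IR did not stand above Ctrl, the lowest Ctrl library falling among the IR libraries, and the L_IR libraries were the lowest. Per FPKM of Jchain, the summed level was 7.81, 7.97 and 9.02 FPKM in Ctrl, 9.62, 9.32 and 9.30 in IR, 4.95, 5.19 and 4.93 in Ab_IR and 3.75, 3.72 and 3.77 in L_IR, so that every IR library lay above every Ctrl library, with L_IR again the lowest.

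A model of all 12 libraries with the log2 level of Igkc as a term was also fitted. In IR against Ctrl it gave 27 higher and 5 lower genes among the 50. Of these, 23 were among the 31 calls of the test on the 6 libraries compared. Over all genes 25.6% were higher and 28.6% lower with the term. The fit of all 12 libraries without the term gave 22.1% and 31.6% and kept all 31 calls. In the test on 6 libraries these shares were 17.5% and 25.5%. Of the variation of Igkc within groups, 92.0% came from Ctrl, where replicate 1 was the highest. With the Igkc term the other 8 of the 31 calls were lost. In that fit Hspa5 (log2 fold change 0.25), Herpud1 (0.32) and Atf4 (-0.036) did not pass, and Hsp90b1 (-0.038) and Canx (-0.17) changed sign without passing. Creld2 (2.24), Sdf2l1 (2.12) and Ero1l (0.63) still passed.

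Other cell type markers moved with the groups too. Of 15 plasma cell markers with a row, a list that includes Xbp1, Mzb1 and other ER genes, 12 were higher in IR than in Ctrl, and 9 were lower and 4 higher in Ab_IR than in IR. In L_IR the split was the other way, with 9 higher and 4 lower than in IR, and 14 of the 15 were lower in Ab_IR than in L_IR. Without Igkc and Ighm their sum was 692 to 799.8 FPKM in Ctrl, 1125 to 1148 in IR, 1164 to 1253 in Ab_IR and 1583 to 1609 in L_IR, and none of them was at 0 in all libraries. Of 10 neutrophil markers 5 were higher in IR than in Ctrl, and their sum was 10811 to 12596 FPKM in Ctrl, 16108 to 16379.6 in IR, 11793 to 12372 in Ab_IR and 8728 to 8943 in L_IR. All 8 eosinophil, 7 erythroid, 6 mast cell and basophil, 8 bone and stroma and 5 platelet markers tested were lower in IR than in Ctrl, and the eosinophil sum was 394 to 406 FPKM in IR against 4717 to 6264 in Ctrl. In Ab_IR the eosinophil sum was 6784 to 6913 FPKM and in L_IR 2878 to 2906 FPKM. All of the eosinophil, erythroid, mast cell and basophil, and platelet markers tested were higher in Ab_IR and in L_IR than in IR, as were 7 and 8 of the 8 bone and stroma markers. The part of these cell types in the levels of the listed genes was not tested.

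**Figure D5:**
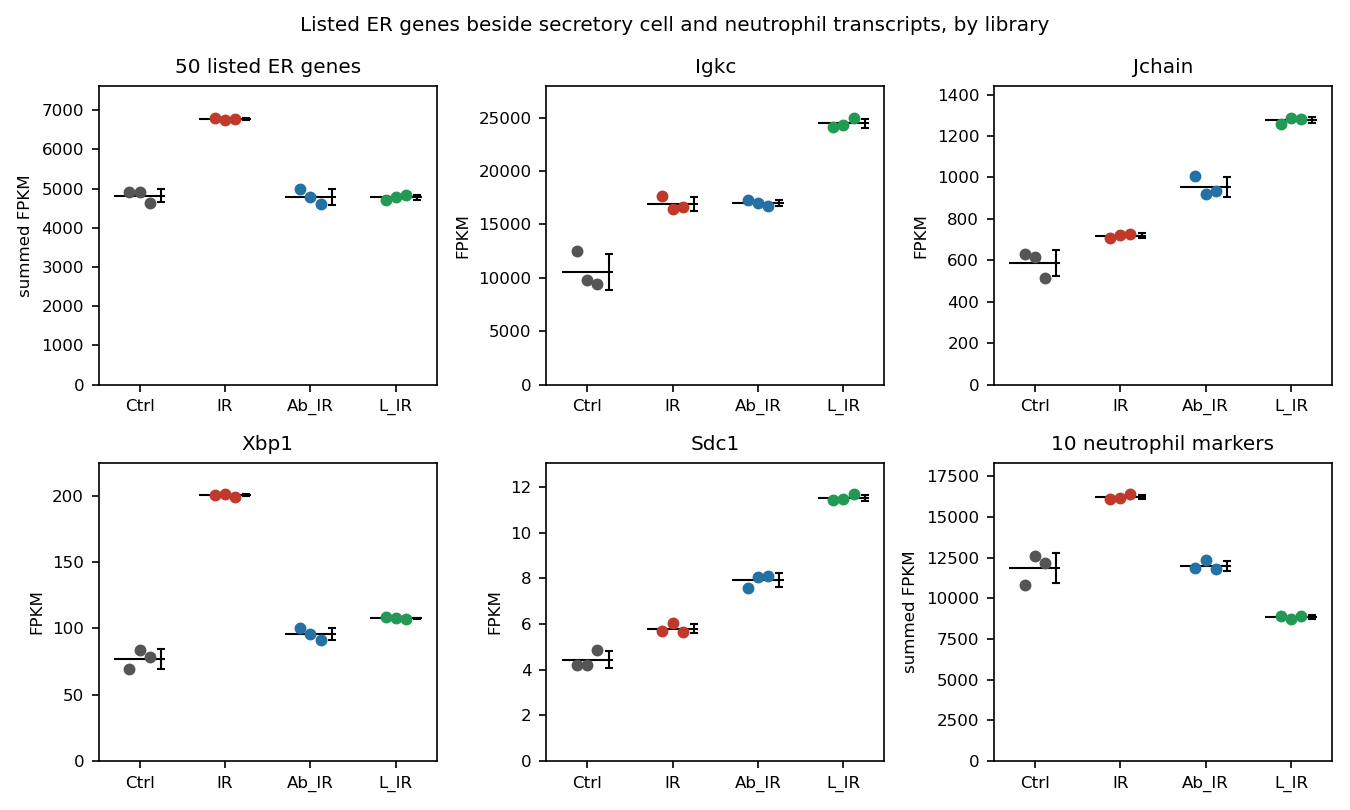
Summed level of the 50 listed ER genes, the levels of Igkc, Jchain, Xbp1 and Sdc1, and the sum of 10 neutrophil markers, in FPKM, in each library (points) with the mean of 3 (line) and SD (bar). The ER genes and Xbp1 are highest in IR, whereas Igkc, Jchain and Sdc1 are highest in L_IR.

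A further list of 86 genes of the same pathway was read beside the 50, of which 83 had a row and 80 were tested. In IR against Ctrl 35 were higher and 7 lower, with a median log2 fold change of 0.24, against 17.5% higher and 25.5% lower among all genes tested, where these are 43.8% and 8.75% of the 80. In Ab_IR against IR 12 were higher and 52 lower (15.0% and 65.0%, against 39.4% and 29.4% of all genes). In L_IR against IR 13 were higher and 48 lower (16.2% and 60%, against 40.8% and 26.0%). Between Ab_IR and L_IR 11 were higher in Ab_IR and 27 lower (13.8% and 33.8%, against 18.2% and 19.8%). Of the 12 retrieval and ER exit genes tested, 8 were higher in IR than in Ctrl and 4 did not pass (Kdelr1, Sec23a, Sar1a and Sar1b). In Ab_IR 11 of these 12 were lower than in IR and Kdelr1 did not pass, and in L_IR all 12 were lower. Examples chosen after their values were seen are Kdelr2, a receptor that returns chaperones to the ER, and the cargo receptor Surf4. Kdelr2 was at 49.5, 56.0 and 53.5 FPKM in Ctrl and 85.1, 91.3 and 84.2 FPKM in IR (log2 fold change 0.70, adjusted p = 5.88e-04). Surf4 was at 117, 98.0 and 103 FPKM in Ctrl and 170.4, 172 and 169 FPKM in IR (log2 fold change 0.69, adjusted p = 0.00105). For both genes the IR libraries lay well above Ctrl.

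Of 21 other stress regulators and targets, 7 were higher and 5 lower in IR than in Ctrl, a share of 33.3% and 23.8% against 17.5% and 25.5% of all genes tested. The 7 higher genes were Xbp1, Atf6b, Eif2s1, Atf5, Chac1, Nupr1 and Cebpb, and the 5 lower genes Eif2ak1, Eif2ak2, Atf3, Asns and Ddit4. Atf5, a target of Atf4, was at 8.46, 8.65 and 9.53 FPKM in Ctrl and 13.8, 14.4 and 14.8 FPKM in IR (log2 fold change 0.64, adjusted p = 7.58e-04), and Chac1, another, was low, at 0 to 1.23 FPKM in Ctrl and 1.89 to 2.54 FPKM in IR. Atf3 and Ddit4, known targets of Atf4 and like Atf5 and Chac1 chosen after their values were seen, were among the lower genes. Atf3 was at 15.3, 18.9 and 19.4 FPKM in Ctrl, 5.26, 5.85 and 5.80 in IR, 23.0, 22.8 and 23.0 in Ab_IR and 16.6, 15.9 and 16.2 in L_IR, with log2 fold changes of -1.5 in IR against Ctrl (adjusted p = 1.28e-04) and 1.85 in Ab_IR against IR (adjusted p = 1.52e-07). Ddit4 was at 25.8, 19.4 and 20.7 FPKM in Ctrl, 9.02, 9.49 and 8.64 in IR, 17.1, 17.7 and 16.1 in Ab_IR and 15.4, 15.4 and 14.2 in L_IR (log2 fold change -1.18 in IR against Ctrl, adjusted p = 4.26e-04). As for Ddit3 and Ppp1r15a, the IR libraries of both genes were the lowest of the 12. Txndc5, a disulfide isomerase that is abundant in plasma cells and was also chosen after its values were seen, was at 65.8, 69.3 and 67.7 FPKM in IR and 71.2, 71.1 and 67.5 in L_IR and did not pass between these groups. It was lower in Ab_IR than in L_IR (log2 fold change -0.51, adjusted p = 2.48e-04).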

How the data were processed

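RNA-seq libraries of mouse BM cells that the labels call sorted HSCs, 3 per group, were read as 12 gene tables of FPKM that the authors deposited. The submitters' processing notes name fastp, HISAT2, StringTie and GRCm38 (mm10), whereas the study's methods name fastp, RSEM and DESeq2, so the program behind the FPKM is uncertain, and the annotation and counting settings are not given in the sources used here. FPKM are scaled to the total of a library, so that a very abundant transcript such as Igkc lowers the values of all others. As FPKM are not counts, the count test of the study was replaced by limma 3.58.1 (R 4.3.3), with a mean-variance trend, on log2(FPKM + 1) of the 6 libraries compared. Genes that reached 1 FPKM in 3 or more of these libraries were tested, with Benjamini-Hochberg adjustment over all genes tested. The scripts (Python 3.11.15, pandas 2.3.3, numpy 2.4.6, matplotlib 3.10.9) were tested on simulated data. Where 1 library was left out of a group, the spread was pooled over the remaining 5.

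The 50 genes and all further lists were chosen with earlier results of these data known. Full values were given to the 6 genes per comparison with the largest absolute log2 fold change among those that passed, did not overlap between groups and had a mean of at least 5 FPKM, and to a fixed set of chaperones, sensors and effectors with Igkc, Xbp1, Jchain and Sdc1. Other genes named with values (such as Dnajb9, Dnajb11, Hyou1, Ero1lb and Sec61a1) were chosen after their values were seen. Alternatives were another pseudocount (0.1), no filter, a mean of at least 10 FPKM, quantile and median ratio scaling, removal of immunoglobulin genes, no trend, all libraries in one fit, terms for Igkc and for heart transcripts, a replicate block and each library left out. Promoter sequences and coordinates are from RefSeq, GRCm38.p6, with Ero1l and Ero1lb matched as Ero1a and Ero1b. The deposited tables were used whole, with no sample left out.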

Additional observations from a re-analysis of the deposited data

How the results depend on the processing

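Of 1458 recomputed log2 fold changes of 86 gene results that passed, 1351 kept their direction and their side of the threshold, 93 kept only the direction and 14 changed sign. Of the counts among the 50 genes, that of lower genes in IR against Ctrl was 4 (25.5% of all genes). It was 2 to 5 with 1 library left out (16.9% to 34.7% of all genes). With the heart transcript split as a term, an alternative chosen after seeing the data, it was 7. In that fit of all 12 libraries 37.5% of all genes were lower, against 31.6% in the same fit without the term. The count of higher genes was 27, and 20 to 32 with 1 library left out (11.6% to 25.1% of all genes). With the heart term 11 genes were higher in each of Ab_IR and L_IR against IR, in place of 7 in the tests on 6 libraries. Of all genes, 35.6% and 34.1% were then higher, against 31.1% and 29.3% in the fit of 12 libraries without the term. With immunoglobulin genes left out, 4 were higher in Ab_IR against IR (28.0% of all genes), and 2 were higher and 22 lower in Ab_IR against L_IR (6.57% and 34.0%). The 11 lower genes of that comparison became 7 with all libraries in one fit (11.2% of all genes) and 6 to 11 with 1 library left out (14.7% to 18.5%). With Igkc as a term, the sign changed in IR against Ctrl for Hsp90b1 (-0.038) and Canx (-0.17), in L_IR against IR for Sec61b (0.17), Ern1 (-0.30) and Dnajb9 (-0.27), and in Ab_IR against L_IR for Calr (0.017), Pdia4 (0.10), Manf (-0.52), Sec61b (-0.064), Atf6 (0.062) and Ern1 (0.27). With the heart transcript split it changed in L_IR against IR for Sec61b (0.088), Ern1 (-0.19) and Dnajb9 (-0.11). Both terms rest mostly on the difference of Ctrl replicate 1 from the other Ctrl libraries, and the cause of these changes was not tested. Same-numbered libraries deviated from their group means with correlations of -0.27 to 0.078, which does not settle whether they shared mice or a batch. With the replicate block, 24 genes were higher and 3 lower in IR against Ctrl (14.6% and 20.9% of all genes), 6 and 34 in Ab_IR against IR (38.8% and 28.5%), 7 and 35 in L_IR against IR (39.1% and 24.9%), and 5 and 7 in Ab_IR against L_IR (13.3% and 15.1%), and Canx, Herpud1 and Atf4 were among the calls lost. The read depth is not known from FPKM, so the counting error of low genes such as Trib3 cannot be given.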
